A study of Aptenodytes patagonicus with 3 samples.

Results

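The genes described here are the peroxisome proliferator-activated receptors PPARA, PPARD and PPARG, their partners RXRA and RXRG, the orphan receptor ESRRG, the coactivators PPARGC1A and PPARGC1B, and the mitochondrial factors NRF1 and TFAM. They were chosen by name, as every probe set whose only gene symbol in the annotation of the array is one of these. All 10 genes were found, with 22 of the 36813 probe sets on the array, and 12913 genes have a probe set in all. The RNA came from the pectoralis muscle of 3 juvenile king penguins of the artificially acclimated (AA) group. Before the experiment these birds had not yet entered the sea, and they moulted in captivity. They were then immersed in water at 8 °C 10 times, for 5 hours each, 1 time every 2 days. The labels give birds 1 and 3 as female and bird 2 as male. Each bird gave 1 array. The never-immersed and sea-acclimated groups of the study were not analysed here, so no value below is a change caused by immersion, and all comparisons are between birds of 1 condition.

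PPARs are nuclear receptors that bind fatty acids and, paired with a retinoid X receptor (RXR), switch on genes for the uptake and oxidation of fat. PGC-1α, the protein of PPARGC1A, and PGC-1β, that of PPARGC1B, do not bind DNA by themselves but join such receptors and raise the transcription of their targets. In mammalian skeletal muscle, cold and exercise are known to raise PGC-1α, which acts through the estrogen-related receptors and NRF1 on nuclear genes of the respiratory chain and on TFAM. TFAM enters the mitochondrion, where it packs mitochondrial DNA and starts its transcription.

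In the AA birds, a pair of genes stood out among the members by their range between birds. PPARGC1A was about 1 log2 unit lower in bird 3 than in the other birds, on each of its 2 probe sets, and TFAM was 1.06 log2 units lower in the male than in the females on its only probe set. RXRA and ESRRG also had a range over 0.5 on the log2 scale, but not on all of their probe sets, and RXRG had one on both, with a different order of the birds on each. In whole muscle, less RNA of a gene per cell and fewer cells of a type cannot be told apart. The PPAR genes themselves had a range of at most 0.41 on any of their 7 probe sets, some of them dim. The median range over all probe sets was 0.36. No member passed a test of the male against the females.

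Signal is given on the log2 scale, as deposited. The array carries chicken probes, and the binding of penguin RNA to them differs from probe to probe, so levels were compared between birds and not between genes. The arrays held nearly the same distribution of values, with a median from 8.62 to 8.63, and 4 of the 22 member probe sets lay in the dimmest 25% of all probe sets, below a mean of 7.88. Of the 22, 6 are of types that can bind several transcripts (_s_at and _a_at). The markers of fast fibres, which make up most of a bird's pectoralis, were measured for 11 of 17 genes and had mean signals of 11.55, 11.53 and 11.81 in birds 1, 2 and 3. An array value has no true zero and cannot be set against that of other probes, so the tissue given by the labels could not be checked with these values.

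**Figure D1:**
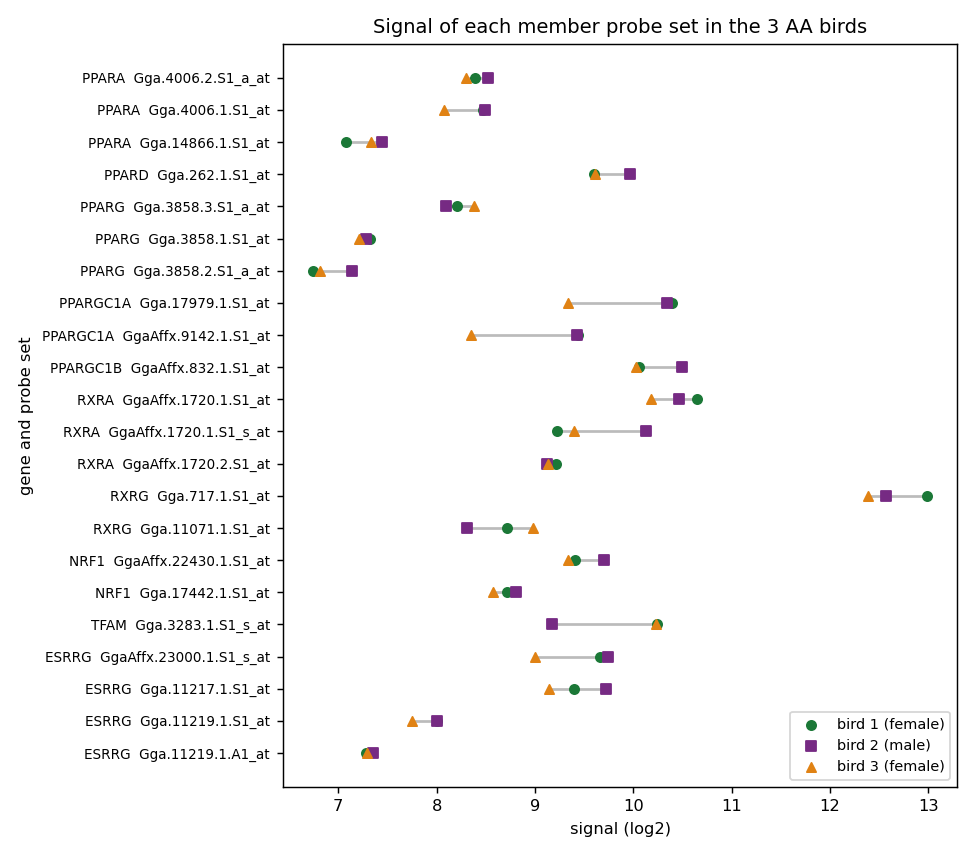
Signal on the log2 scale (x axis) of the 22 member probe sets (y axis, by gene and probe set) in each of the 3 AA birds, with a grey line over their range. The PPARGC1A probe sets show bird 3 about 1 log2 unit to the left of birds 1 and 2, and TFAM shows the male 1.06 to the left of the females.

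PPARA, the receptor that drives fat oxidation in liver and muscle, was highest in the male on all 3 of its probe sets. On Gga.4006.2.S1_a_at bird 1 read 8.39, the male 8.53 and bird 3 8.30 (8.41 ± 0.12, SD, n = 3). On Gga.4006.1.S1_at it read 8.47, 8.49 and 8.08, and on Gga.14866.1.S1_at, the dimmest, 7.08, 7.44 and 7.33. The male was thus the highest bird throughout, but the lowest bird was not the same on the 3 probe sets, and the male exceeded the mean of the females by only 0.18 to 0.23. PPARD, the form most associated with skeletal muscle in mammals, has 1 probe set, which read 9.60, 9.97 and 9.61 (9.72 ± 0.21, SD, n = 3). The females were 0.01 apart and the male lay 0.37 above their mean (limma standard error 0.23, adjusted p = 0.668). PPARG, the receptor of fat cell differentiation, gave a different order of the birds on each of its 3 probe sets. It read 8.20, 8.09 and 8.38 on Gga.3858.3.S1_a_at, 7.32, 7.28 and 7.21 on Gga.3858.1.S1_at, and 6.75, 7.14 and 6.82 on Gga.3858.2.S1_a_at. The last 2 lie in the dimmest 25% of the array. No order of the birds can therefore be given for PPARG. The 11 adipocyte markers measured had mean signals of 10.18, 10.14 and 10.27 in birds 1, 2 and 3, and a median difference from the other birds of -0.13 in bird 1, -0.02 in the male and 0.03 in bird 3.

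RXRA, an obligate partner of the PPARs, was read by 3 probe sets that did not order the birds alike. On GgaAffx.1720.1.S1_s_at, which can bind several transcripts, bird 1 read 9.22, the male 10.13 and bird 3 9.40 (9.58 ± 0.48, SD, n = 3). There the male lay above both females, 1.77-fold over their mean, by 0.82 on the log2 scale (adjusted p = 0.302 from limma, standard error 0.24). On GgaAffx.1720.1.S1_at, however, it read 10.65, 10.47 and 10.18, with the male between the females. On GgaAffx.1720.2.S1_at it read 9.22, 9.12 and 9.13, a range of 0.10. The high value of the male was therefore seen on 1 of 3 probe sets. RXRG, the retinoid X receptor known from skeletal muscle in mammals, read 12.98, 12.56 and 12.39 on Gga.717.1.S1_at (12.65 ± 0.31, SD, n = 3), where bird 1 was 0.51 above the mean of the others. On Gga.11071.1.S1_at it read 8.71, 8.31 and 8.98, where the male was lowest, by 0.53 below the mean of the females (limma standard error 0.24, adjusted p = 0.530). The bird that was highest on one of them, bird 1 or bird 3, was not the highest on the other.

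ESRRG, an estrogen-related receptor that works with PGC-1 proteins on oxidative genes, was lowest in bird 3 on 3 of its 4 probe sets. On GgaAffx.23000.1.S1_s_at, which can bind several transcripts, bird 1 read 9.66, the male 9.74 and bird 3 8.998 (9.47 ± 0.41, SD, n = 3). Birds 1, 2 and 3 read 9.40, 9.72 and 9.14 on Gga.11217.1.S1_at, and 8.01, 8.01 and 7.75 on Gga.11219.1.S1_at. Against the mean of birds 1 and 2, bird 3 differed by -0.70, -0.42 and -0.26 on these. The fourth, Gga.11219.1.A1_at, lies in the dimmest 25% and read 7.29, 7.36 and 7.29, a range of 0.07. The size of the difference varied from probe set to probe set, while its direction was shared by the 3 brighter ones.

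On Gga.17979.1.S1_at bird 1 read 10.39 for PPARGC1A, the male 10.35 and bird 3 9.34 (10.02 ± 0.60, SD, n = 3). On GgaAffx.9142.1.S1_at it read 9.43, 9.43 and 8.35 (9.07 ± 0.62, SD, n = 3). Birds 1 and 2 were 0.04 and 0.01 apart on the 2 probe sets, while the difference of bird 3 from their mean was -1.03 and -1.08 on the log2 scale, 2.05-fold and 2.12-fold lower. Neither is of a type that can bind several transcripts. The range over the birds was larger than on 96.1% and 96.5% of all probe sets. Because birds 1 and 3 are both females, this difference lies within a sex, and it gave the male a log2 difference of 0.48 and 0.54 from the mean of the females, although the male read much as bird 1 did. Among the 3624 genes with 2 probe sets, 0.166% (6 genes, PPARGC1A among them) had 1 bird past 1 log2 unit from the others in the same direction on both. This size of 1 lies just under the differences of PPARGC1A itself, so the share does not measure how rare such a gene is. At a size of 0.5, 1.78% of the 7076 genes with several probe sets had 1 bird past it the same way on all. This share pools genes with 2 probe sets and genes with more, which must agree on more of them. PPARGC1B, the other coactivator, has 1 probe set and read 10.06, 10.49 and 10.03 (10.19 ± 0.26, SD, n = 3). The females were 0.03 apart and the male lay 0.45 above their mean (limma standard error 0.23, adjusted p = 0.587). In bird 3, PPARGC1B was thus level with bird 1, where PPARGC1A was not. Of all 12913 genes, each read from its brightest probe set, bird 3 was highest for 31% and lowest for 33.2%. The fast fibre markers had a median difference of 0.18 from the others in bird 3, where 7 of 11 were highest and 0 were lowest. The fibroblast and matrix markers had a median difference of -0.12 there, with 6 of 11 lowest and 2 highest. Their median difference was lower still in the male, at -0.23, and was 0.53 in bird 1. The part of these in the PPARGC1A values was not tested.

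NRF1, a transcription factor for nuclear-encoded respiratory genes, was highest in the male and lowest in bird 3 on both of its probe sets. It read 9.40, 9.70 and 9.34 in birds 1, 2 and 3 on GgaAffx.22430.1.S1_at and 8.72, 8.81 and 8.58 on Gga.17442.1.S1_at. The ranges, 0.36 and 0.23, were larger than on 49.1% and 24.98% of all probe sets. TFAM read 10.24, 9.17 and 10.23 (9.88 ± 0.61, SD, n = 3) on Gga.3283.1.S1_s_at. The females were 0.01 apart and the male was 2.08-fold lower than their mean, -1.06 on the log2 scale (standard error 0.23 from limma, unadjusted p = 0.00151, adjusted p = 0.214). This is the only probe set for TFAM and can bind several transcripts, so no other reading of the gene can be set beside it. With 1 male, a difference of sex and a difference of this bird cannot be told apart. None of the 9 members found by symbol in the RefSeq genes of bAptPat1.pri.cur, a king penguin assembly, is on chromosome Z or W. The member that was not found is not named by this count, so it does not settle the place of TFAM. The erythrocyte markers were divided in the male, which was lowest for 6 of the 10 measured and highest for the other 4, beside 32.5% and 41.5% of all genes. Of these markers, 4 were over 0.5 lower in the male and 1 higher, beside 11% and 5.95% of all genes. Their median difference in the male was -0.21, and their mean signals were 11.65, 11.26 and 11.41 in birds 1, 2 and 3. Their part in the TFAM value was not tested.

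**Figure D2:**
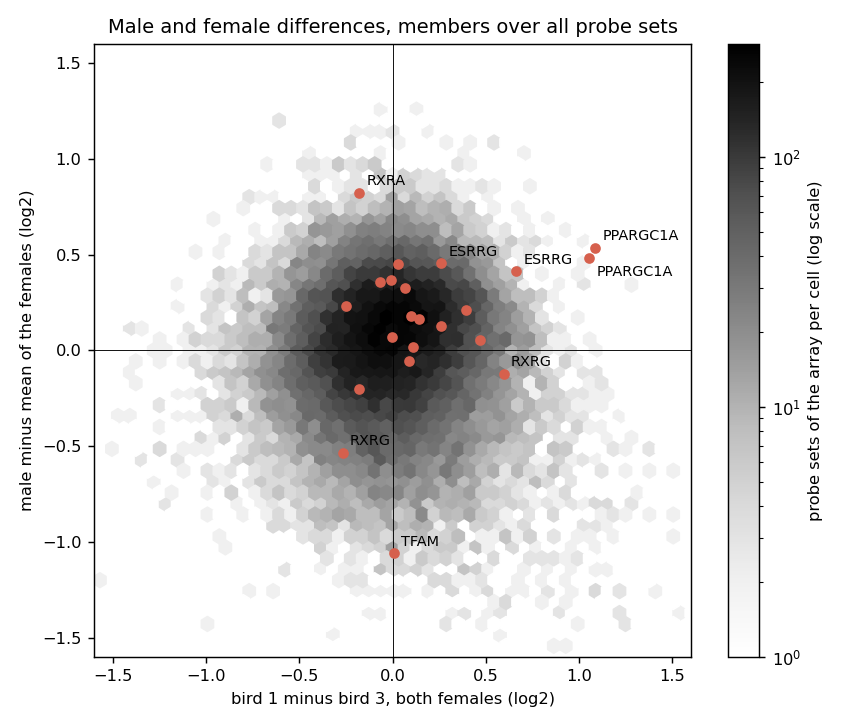
Difference between the females, bird 1 minus bird 3 (x axis, log2), against the male minus the mean of the females (y axis, log2) for all probe sets (grey cells, darker for more on a log scale) and for the 22 member probe sets (red points, those with a range over 0.5 named). PPARGC1A lies far to the right, through bird 3, and TFAM far down on the line of no difference between the females, while 191 probe sets lie beyond the axes.

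Counted over the members, the range between birds was over 0.5 in 8 of the 22 probe sets, in 5 genes, beside 29.3% of all probe sets, and over 1 in 3 probe sets, in 2 genes, beside 4.56%. Bird 3 was over 0.5 lower than the mean of the others on 3 probe sets, those of PPARGC1A and 1 of ESRRG (3.64% of all probe sets), and higher on 1, that of TFAM (5.16%). The male was lower by over 0.5 on 2, those of TFAM and 1 of RXRG (8.5% of all), and higher on 2, 1 of RXRA and 1 of PPARGC1A (5.01%). Bird 1 was higher on 4, the 2 of PPARGC1A, 1 of RXRG and that of TFAM (5.72%), and lower on 1 of RXRA (3.74%). The 3 differences of a probe set add up to 0, so the low values of bird 3 in PPARGC1A and of the male in TFAM also raised the differences of the other birds in these genes. With so few probe sets, 1 gene moves each of these counts.

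The members were also counted by the order of the birds, whatever the size of the difference. Bird 3 was below both other birds on 13 of the 22 probe sets, in 8 genes, beside 34.2% of all probe sets, and above both on 2 (30.9%). The male was above both females on 12, in 7 genes (41.4% of all), and below both on 4 (31.1%). Probe sets of a gene share its RNA, so these counts hold fewer than 22 independent readings. Averaged over the probe sets of each gene, bird 3 was the lowest for PPARA, PPARGC1A, PPARGC1B, RXRA, NRF1 and ESRRG. The male was the highest for PPARA, PPARD, PPARG, PPARGC1B, RXRA, NRF1 and ESRRG. For PPARA, PPARG, RXRA and ESRRG the averaged probe sets did not order the birds alike, and the PPARG means had a range of only 0.08. Most of these differences were small, since the gene mean differed by over 0.5 between birds in 2 genes only, PPARGC1A and TFAM. No share over all genes is given for such means. Read from the brightest probe set of each gene, bird 3 was lowest for 7 of the 10 members (33.2% of all genes). The male was highest for 5 (41.5%).

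Of the 7 members with more than 1 probe set, PPARGC1A and NRF1 had the same bird lowest on all of them, beside 24% of the 7076 genes with several probe sets. PPARA, PPARGC1A and NRF1 had the same bird highest (24%). The highest bird was close to a tie for PPARGC1A, where bird 1 was only 0.04 and 0.01 above the male. The same held on Gga.4006.1.S1_at of PPARA, where the male was 0.01 above bird 1. PPARGC1A was the only member with 1 bird past 0.5 in the same direction on every probe set, which held for 1.78% of such genes. RXRA, RXRG and PPARG, by contrast, did not keep the order of the birds from probe set to probe set. Nor did PPARA, which kept only the highest bird, and ESRRG, which kept neither the highest nor the lowest on all. The shares given here pool genes with 2 probe sets, as PPARGC1A and NRF1 have, and genes with more. Genes with more must agree on more of them, so agreement over 2 is less rare than the pooled shares.

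The spread of the members was close to that of the array. The median SD over the 3 birds was 0.22 for the 22 probe sets, from 0.04 to 0.62, and 0.19 for all probe sets. In 8 of the 22 the SD fell in the highest 25% of the array, and in 7 of them among probe sets of like signal (the same of 4 equal bins). In 3, those of PPARGC1A and TFAM, it fell in the highest 5%. Among probe sets of like signal, only GgaAffx.9142.1.S1_at of PPARGC1A did, at percentile 96.9. The other probe set of PPARGC1A was at 94.2 and that of TFAM at 94.5. Apart from these genes, the SD of the members reached 0.48.

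In the test of the male against the females with limma over all probe sets, the adjusted p was under 0.05 for 0 of the 22 member probe sets and for 0% of all probe sets. At an unadjusted p under 0.05 there were 2 of the 22, those of TFAM and the _s_at probe set of RXRA, beside 9.78% of all. With 1 residual degree of freedom, the test assumes that the lone male varies as the females do. A p that missed the threshold therefore does not show that the birds were alike. Limma added 7.35 prior degrees of freedom, taken from all probe sets. The standard errors from limma thus weigh that shared spread more than the spread of the gene itself.

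Other genes of the pathway were read from lists, with the brightest probe set for each gene, and 0 genes of any list passed limma's test of the male against the females. Among all 12913 genes, 33.2% had a range over 0.5. The male was over 0.5 lower than the mean of the females for 11% of all genes and higher for 5.95%, bird 3 was lower than the others for 4.02% and higher for 6.16%, and bird 1 was lower for 4.36% and higher for 6.88%. Of the upstream regulators, kinases, deacetylases and factors that act on PPARGC1A, 9 of 20 measured had such a range, and 6 were over 0.5 lower in the male and 1 higher. Over the whole list, however, the male had a median difference of -0.02 and was lowest for 6 of the 20 genes and highest for 8. SIRT1, which deacetylates PGC-1α, read 9.91, 8.83 and 9.58 in birds 1, 2 and 3, and on its next probe set 8.98, 7.84 and 8.42. The male was the lowest on both of these, but the highest on its dimmest probe set, at 7.94, 8.15 and 7.69. PRKAG2, a subunit of the AMP-activated kinase, read 9.80, 8.78 and 9.96, and the male was also lowest on its other probe set. ATF2 read 9.93, 8.29 and 9.34 and MAPK14, the p38 kinase, 9.67, 9.01 and 10.11, but the other probe sets of MAPK14 had the male highest and those of ATF2 had bird 3 lowest.

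Of 22 related receptors and coregulators, 8 had a range over 0.5, with 3 over 0.5 lower in the male and 1 higher, and 3 of 22 is near the share over all genes. NCOA2, a coactivator of nuclear receptors, read 12.75, 10.50 and 11.63 on its brightest probe set, which can bind several transcripts. Yet it read 11.25, 11.25 and 11.61 on the next. The male was highest on 3 of its 4 dimmer probe sets and lowest on the other. NR1H3, the liver X receptor that also pairs with RXR, read 9.86, 9.16 and 9.98, and the male was lowest on its other probe set too. TBL1X, part of a corepressor complex, read 12.07, 11.34 and 12.14, but 8.24, 8.91 and 8.66 on its next probe set, where the male was the highest, and 6.71, 6.61 and 7.25 on its dimmest, where it was again the lowest. NR4A3, an orphan receptor, read 9.31, 9.72 and 9.05. The median difference of the male over the list was -0.13, beside 0.04 for all genes.

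Of 23 measured PPAR targets, 9 had a range over 0.5. FABP3, a carrier of fatty acids in muscle, read 11.64, 13.66 and 12.02 in birds 1, 2 and 3, the highest value being that of the male, by 1.83 over the mean of the females (limma adjusted p = 0.135). UCP3, a mitochondrial carrier of the uncoupling protein family, read 9.87, 10.63 and 8.86 on its only probe set. It was lowest in bird 3, with a difference of -1.39 from the mean of the others, and highest in the male. PDK4, which slows the entry of pyruvate into the mitochondrion's oxidative pathway, read 10.43, 9.49 and 9.93, and PLIN2, a lipid droplet coat protein, 7.89, 8.57 and 7.90. Over the whole list the median difference of bird 3 was 0.03, with 2 genes over 0.5 higher and 2 lower (6.16% and 4.02% of all genes). In the male the median was -0.17, with 3 genes over 0.5 higher and 2 lower (5.95% and 11% of all genes).

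The targets of NRF1 and of the estrogen-related receptors, mainly subunits of the respiratory chain, differed the least. Of 24 measured, 4 had a range over 0.5, NDUFS1, ALAS1, UQCRC1 and VEGFA, none of them over 0.65, and 1, NDUFS1, was over 0.5 lower in bird 3. NDUFS1, a subunit of complex I, read 11.73, 11.45 and 11.08 on its brightest probe set, which can bind several transcripts. Its 2 dimmer probe sets had the male lowest. The median difference was 0.05, -0.06 and 0.02 in birds 1, 2 and 3. Of 19 genes for the upkeep and expression of mitochondrial DNA, 6 had a range over 0.5, with 3 over 0.5 lower in bird 3 and 0 higher (4.02% and 6.16% of all genes). These 3 were MTERF2, MGME1 and SUCLA2. SUCLA2, a subunit of succinyl-CoA synthetase that mitochondrial DNA upkeep needs, read 12.46, 12.48 and 11.92, and 11.24, 10.96 and 10.55 on its other probe set, so that bird 3 was lowest on both. MTERF2, a mitochondrial transcription factor, read 8.53, 9.80 and 8.27, so the difference of bird 3 came mainly from the high value of the male. On its other probe set MTERF2 read 7.91, 8.26 and 8.25, where bird 1 was lowest. MGME1, a nuclease of mitochondrial DNA, read 11.44, 11.58 and 10.96 on its brightest probe set, which can bind several transcripts. Bird 3 was also lowest on its dimmest probe set, at 8.01, 8.21 and 7.70, but highest on the one between, at 8.04, 7.69 and 8.47. POLG2, a subunit of the mitochondrial DNA polymerase, read 7.60, 6.84 and 7.57 on its only probe set, lowest in the male as TFAM was. The median difference of the male over these 19 genes was -0.02, with 1 over 0.5 higher and 1 lower.

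**Figure D3:**
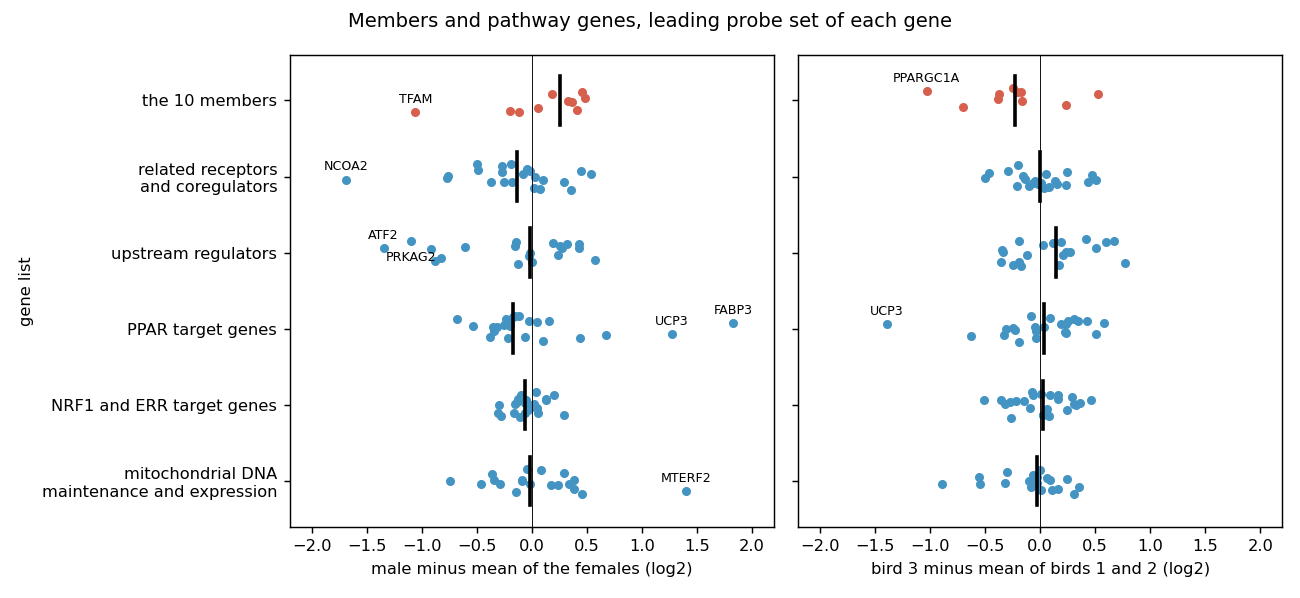
Difference of the male from the mean of the females (left, log2) and of bird 3 from the mean of birds 1 and 2 (right, log2) for each gene of the 10 members and the 5 pathway lists (y axis), with the list median as a black bar and genes past 1 named. PPARGC1A and UCP3 are past 1 below the other birds in bird 3, and the list medians lie between -0.23 and 0.25.

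**Figure D4:**
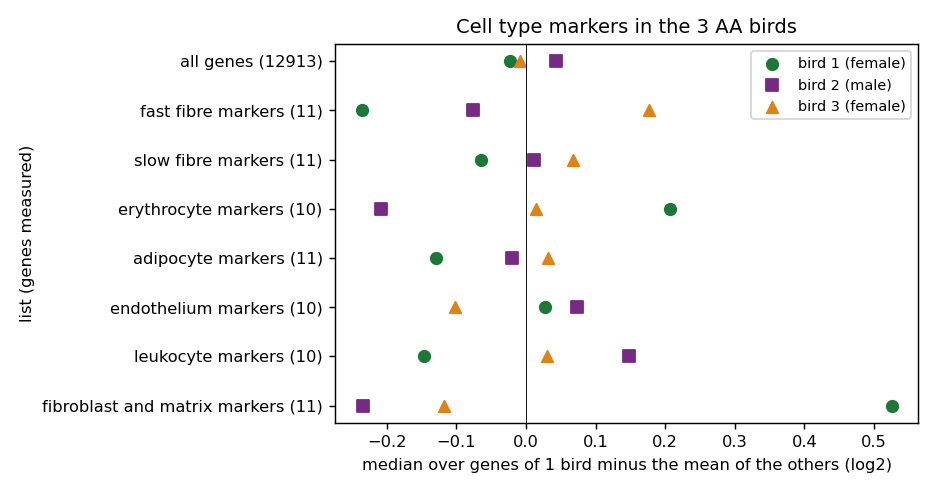
Median over the genes of each cell type marker list (y axis, with the number of genes measured) of 1 bird minus the mean of the others (x axis, log2), 1 symbol for each bird. The fibroblast and matrix markers of bird 1 lie highest, at 0.53, and the medians over all genes lie between -0.02 and 0.04.

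Of the 74 cell type markers measured, 31 had a range over 0.5 and 8 a range over 1, and in 7 it was larger than the largest of any member probe set, 1.08. A range over 0.5 was found for 60% of the erythrocyte markers and 63.6% of the fibroblast and matrix markers, beside 33.2% of all genes. The fibroblast and matrix markers were over 0.5 higher in bird 1 for 6 of 11 genes, beside 6.88% of all genes, with mean signals of 9.91, 9.49 and 9.48 in birds 1, 2 and 3. The leukocyte markers had mean signals of 9.50, 9.51 and 9.51, the endothelium markers 9.65, 9.61 and 9.59, and the slow fibre markers 10.61, 10.50 and 10.61. Their part in the differences of the members between birds was not tested.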

How the data were processed

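Muscle RNA of 3 AA birds was hybridized to Affymetrix Chicken Genome arrays. By the methods of the study, the authors summarised the probes of each set with MaxRS, took log2, normalized by quantiles and deposited a log2 signal for each probe set in each bird. The number of arrays normalized together is not stated. Limma is named in the submitters' notes. The platform's annotation named 1 gene for 26041 probe sets, several for 170 and none for 10602.

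The deposited values were used as they are. For each probe set the SD, the range and the difference of each bird from the mean of the others were computed, with a size of 0.5 as a threshold and no test. The male was tested against the females with limma 3.58.1 (lmFit and eBayes, R 4.3.3) on all 36813 probe sets, with Benjamini-Hochberg adjustment. The code was also run on simulated data, with changes in the male larger than any member showed and the same spread in all birds. That run checked the code only, and does not show how well the test finds differences of the size seen here. A gene of a list was read from its probe set with the highest mean. Of 244 entries in the lists, 52 were not in the annotation. The members and lists were chosen with earlier results of these data known. All members are named, and of each pathway list up to the 4 genes with the largest range past 0.5. Marker lists are given by counts and medians. The alternatives were other normalizations, filters on dim or less specific probe sets, other sizes, other summaries and leaving out birds. The labels give no batch, and the number of arrays limits the precision.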

Additional observations from a re-analysis of the deposited data

How the results depend on the processing

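The count of member probe sets with the male past 0.5 from the mean of the females was 4, and 2 without the less specific probe sets (_s_at, _a_at, _x_at), 11 at a size of 0.3, 1 at a size of 1 and 2 with 1 value per gene. Leaving out a female gave 2 to 7, with 7 without bird 1 and 2 without bird 3. The count with a range past 0.5 was 8, and 5, 15, 3 and 2 under the same alternatives, and 2 to 7 with a bird left out (7 without bird 1, 4 without bird 2 and 2 without bird 3). The median SD of the members, 0.22, was 0.111 to 0.242 with a bird left out, at 0.127 without bird 2 and 0.111 without bird 3. The same bird was lowest on every probe set of 2 members, and of 4 without the dimmest 25%, which leaves fewer probe sets per gene. With the mean over a gene's probe sets, the median difference of the male was -0.0668 in place of -0.17 for the PPAR targets and 0.0833 in place of 0.01 for the slow fibre markers. For the counts past a size, a larger size or fewer probe sets can only lower the count, and a smaller size can only raise it. A range over fewer birds can only be the same or smaller, and 1 value per gene counts genes in place of probe sets. Where no other reason is given, the cause of a shift was not tested. The limma test of the male called 0 of all probe sets, but 5 without the less specific probe sets and 2 with an intensity trend, and 0 member probe sets under any alternative. Leaving out the less specific probe sets also left out that of TFAM and the _s_at probe set of RXRA, so neither could be called there. The deposited arrays already held nearly the same distribution of values, so another normalization could hardly move a difference. Quantile normalization run again and median centring left the PPARGC1A difference in bird 3 between -1.03 and -1.08 and the TFAM difference of the male at -1.06. Leaving out 1 of the other birds gave -1.01 to -1.08 and -1.06. No paired analysis was possible because there is 1 group. Leaving out a female gave a value with no test for the male.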
